A study of Mus musculus with 48 samples.

Results

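The data described here compare the livers of female mice labelled as hepatocyte-specific knockouts of Pparg with those of female controls, all on a high fat (HF) diet. They are 8 of the 48 samples of the series, chosen by their titles, F-HF-KO (4 livers) and F-HF-C (4 livers), and all 24086 genes of the deposited table for this pair entered, of which 14128 had enough reads to be tested. All 8 were adult females with a floxed Pparg gene, fed the HF diet for 34 weeks, and the labels give liver steatosis as their disease state. After 16 weeks of diet the labelled knockouts were injected with AAV8-TBG-Cre, in which the hepatocyte promoter TBG drives Cre recombinase in an adeno-associated viral vector, and the controls with AAV8-TBG-null, which lacks Cre. The control mice therefore shared the floxed gene, the virus and the diet with the labelled knockouts. Cre driven by TBG acts in hepatocytes, so that macrophages, endothelium and other liver cells keep the gene, and the RNA came from whole liver extracted with Trizol. Each library came from 1 animal with its own number in the labels, and the p-values measure the spread between these animals.

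PPARG is a nuclear receptor that pairs with a retinoid X receptor and binds DNA at a direct repeat of a short hexamer. It is best known as the master regulator of fat cells, where it drives genes for lipid droplets, fatty acid uptake and triglyceride synthesis. Healthy hepatocytes hold little of it, but in fatty liver its level rises. The genes described as its hepatocyte targets code for proteins of the CIDE, perilipin and FITM families, which act on lipid droplets. Its relative PPARA, which shares the same partners and a closely related DNA element, is the main switch for fatty acid oxidation and ketone production in liver.

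The libraries held 15900491 to 21230277 counted reads, and 2 of them stood apart from the rest. Levels are given in CPM, reads of a gene scaled to a common library size. Distances were taken on log2(CPM + 0.5) over all 14128 tested genes, low ones included. In control replicate 1, 761 genes lay 2-fold or more from the median of the other 7 libraries. In labelled-knockout replicate 3 the number was 638, against 95 to 220 in the other 6. In control replicate 1 the female-type liver gene Sult2a1 measured 1.09 CPM, against 73.9 to 476 CPM elsewhere, and Cyp3a16 was also low, while Mup20, H19, Osbpl3, Ly6d and Cidec were high. Labelled-knockout replicate 3 was high in myeloid genes: S100a9 measured 40.4 CPM against at most 1.45 CPM in the others, Cd300e 31.7 CPM, and Marco, a receptor of Kupffer cells, 140 CPM. The animal numbers in the labels also fall into a lower range (control replicates 1 and 3, labelled-knockout replicates 1 and 3) and a higher range (the other 4), with a gap between them, which divides both groups evenly. The list counts were therefore also made without these libraries and within each range of animal numbers.

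**Figure D1:**
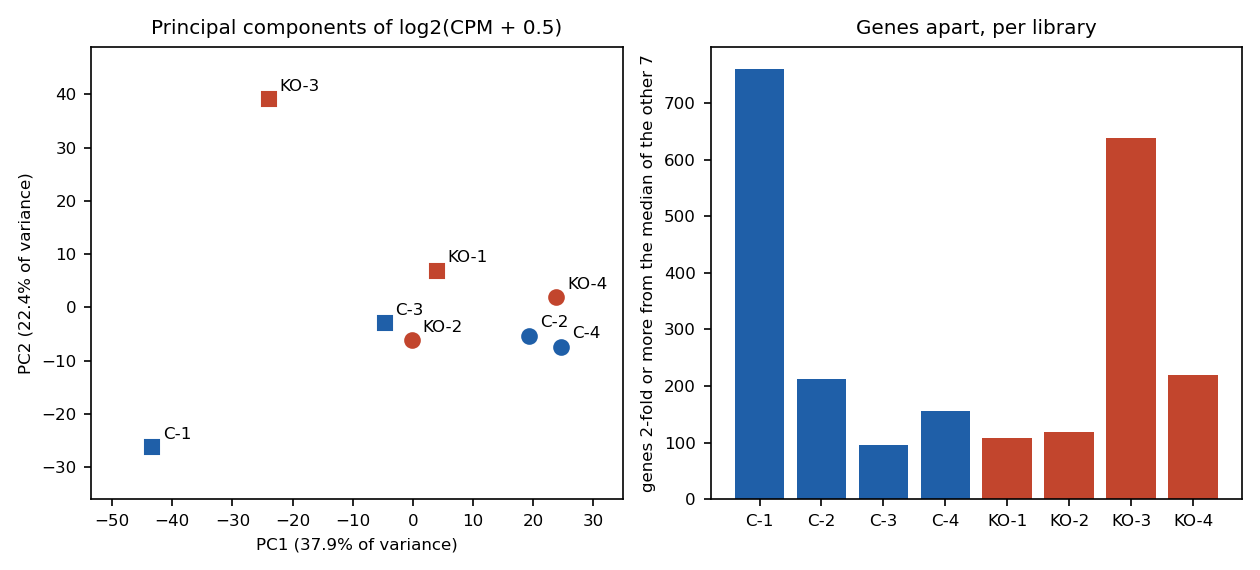
On the left, principal components of log2(CPM + 0.5) over the tested genes, with the first component (37.9% of the variance) on the x axis and the second (22.4%) on the y axis; each point is 1 liver, coloured by group, with squares for the lower range of animal numbers and circles for the higher; on the right, bars from 0 give the number of genes 2-fold or more from the median of the other 7 libraries. Control replicate 1 lies at the far left and labelled-knockout replicate 3 at the top, and the bars of those 2 livers stand at 761 and 638. Among the other 6 livers the groups do not separate. Control replicates 2 and 4 and labelled-knockout replicate 4, all of the higher range, lie at 19.4 to 24.7 on the first component. Control replicate 3 and labelled-knockout replicates 1 and 2 lie at -4.6 to 4.1, and of these labelled-knockout replicate 2 is of the higher range.

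Hepatocyte markers summed to between 94250 and 121500 CPM in the 8 libraries, and the pancreas markers in the table to at most 1.17 CPM. The sum of 5 neutrophil markers was 72.9 CPM in labelled-knockout replicate 3 and 0.577 to 2.91 CPM in the other 7 libraries, with Ly6g, the defining marker, at 0 in those 7. B cell markers summed to 149.9 CPM in that same library and to 23.9 to 50.8 CPM elsewhere. Of 4 mesothelial markers the sums were 17.2 and 17.0 CPM in labelled-knockout replicates 1 and 2 and 0.856 to 6.92 CPM in the other 6. Fewer cells of a type and less RNA per cell cannot be told apart in whole liver. The part of these cells in the gene results below was not tested.

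The targeted gene itself was read first, as a check of the labels. Pparg (ENSMUSG00000000440, chromosome 6, 115360951 to 115490399, GRCm38) measured 21.9, 18.4, 17.1 and 12.3 CPM in control replicates 1 to 4 and 24.0, 27.4, 37.9 and 19.2 CPM in labelled-knockout replicates 1 to 4. The labelled knockouts were thus not lower: 3 of the 4 lay above every control, and only replicate 4 overlapped the control range. The means were 27.1 ± 7.96 and 17.5 ± 3.96 CPM (SD, n = 4 each), and the difference in mean log2 CPM was 0.61, with an exact two-sided permutation p of 0.0571 over 70 regroupings, where the smallest p possible is 0.0286. In the fit across all genes with edgeR's quasi-likelihood test the log2 fold change was 0.64 ± 0.22 (SE), with an unadjusted p of 0.0171 and an adjusted p of 0.584. Reads were counted per gene, the floxed exons were not examined separately here, and non-hepatocyte cells also express Pparg. In labelled-knockout males on the HF diet, edgeR's test called 0 members lower in a list of 15 receptors and cofactors that includes Pparg. Pparg was thus not called lower in those males either. Because the level in these females goes against the label, the group is called labelled knockout throughout. A log2 fold change is that of labelled knockout over control.

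No gene passed an adjusted p of 0.05 in edgeR's quasi-likelihood test (0 of 14128, or 0%). At an unadjusted p under 0.05 there were 8.03% of genes, 649 lower in the labelled knockouts (4.59%) and 486 higher (3.44%). All 4 labelled knockouts lay below all 4 controls for 466 genes (3.3%) and above them for 300 (2.12%). DESeq2's Wald test on the same counts called 54 lower and 16 higher genes among the 5637 to which it gave an adjusted p (0.958% and 0.284%), and 66 of these 70 did not overlap between the groups. The authors' deposited table lists 64 genes with an adjusted p under 0.05, 45 lower (0.187% of its 24018) and 19 higher (0.0791%), and 43 of them were among the 70, all with the same direction. In the account that follows, lower or higher means at an unadjusted p under 0.05 in the edgeR fit unless a call is named, and these counts are to be read against 4.59% and 3.44%. The same shares were 4.11% lower and 3.95% higher without control replicate 1 and 3.28% and 2.34% without labelled-knockout replicate 3. They were 4.2% and 3.01% within the lower range of animal numbers, and 3.11% and 3.94% within the higher range.

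Genes of lipid droplets and triglyceride handling included several lower ones. Of 28 genes described as PPARG-associated, 23 were tested, 11 were lower and 0 were higher, with a median log2 fold change of -0.53, against a median of 0.01 over all genes. For 7 of the 23 the groups did not overlap, and 3, Plin4, Fitm2 and Pnpla2, were called by the DESeq2 Wald test. Without control replicate 1 the count was 10 lower and 0 higher, with a median of -0.32, and within the lower and the higher range of animal numbers it was 13 and 6 lower, with 0 higher in both. The list holds genes that had been seen to fall in labelled-knockout males of this series, so that its direction is not independent evidence.

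Plin4 (ENSMUSG00000002831, chromosome 17, 56100591 to 56109803, GRCm38), a perilipin that coats lipid droplets, showed the largest log2 difference of the 70 genes called by the DESeq2 Wald test. It measured 107, 68.1, 72.8 and 31.0 CPM in control replicates 1 to 4 and 6.03, 12.5, 10.5 and 3.75 CPM in labelled-knockout replicates 1 to 4. Every labelled knockout was below every control, with means of 8.21 ± 4.03 and 69.8 ± 31.3 CPM (SD, n = 4 each). The log2 fold change was -3.08 ± 0.43 (SE), with an unadjusted edgeR p of 3.61e-05, an adjusted edgeR p of 0.32 and an adjusted DESeq2 Wald p of 6.66e-06. It was -2.80 without control replicate 1, and -3.44 and -2.59 within the lower and the higher range of animal numbers. With the spread estimated from all 6 female groups, edgeR's test called Plin4 (adjusted p 0.0031) and only Olig1 besides it.

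Cidec, which fuses small droplets into large ones, had the same direction, but its size rested on 1 liver. Its values were 53.3, 9.30, 13.1 and 5.88 CPM in the controls and 2.56, 5.78, 2.67 and 2.90 CPM in the labelled knockouts, in replicate order. Control replicate 1 stood far above the other 3 controls, and the lowest control, replicate 4, barely cleared the highest labelled knockout, replicate 2. The log2 fold change of -2.56 ± 0.67 (SE, unadjusted edgeR p 0.00357) became -1.45 without control replicate 1, with an unadjusted p of 0.00241.

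The FITM proteins of the endoplasmic reticulum partition triglyceride into nascent droplets. Fitm2 measured 100.1, 97.7, 80.8 and 86.8 CPM in the controls and 56.9, 65.7, 45.3 and 60.9 CPM in the labelled knockouts. The groups stood clear of each other with little spread inside either, and the difference was -0.68 ± 0.12 on the log2 scale (unadjusted edgeR p 0.000247, DESeq2 Wald adjusted p 0.000873). Fitm1 measured 35.0, 19.0, 18.0 and 16.7 CPM against 9.95, 16.2, 10.6 and 4.61 CPM, with a log2 fold change of -1.10 (unadjusted edgeR p 0.0111). Its groups also did not overlap, though control replicate 4 and labelled-knockout replicate 2 nearly met.

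Other coat and lipase proteins moved less. Pnpla2, the main triglyceride lipase of hepatocytes, measured 95.1 to 104 CPM in the controls and 76.5 to 87.7 CPM in the labelled knockouts, without overlap and with a log2 fold change of -0.27 that the DESeq2 Wald test called (adjusted p 0.0435). G0s2, which inhibits that lipase, measured 107, 168, 182 and 134 CPM against 90.9, 131, 87.6 and 66.5 CPM, a log2 fold change of -0.65 (unadjusted p 0.0138). Its groups overlapped, since control replicate 1 was below labelled-knockout replicate 2. Plin2, the most abundant droplet coat protein of hepatocytes, measured 883, 579, 639 and 499 CPM against 384, 631, 341 and 526 CPM. Its difference of -0.47 did not reach an unadjusted p of 0.05 (0.0647), and within the higher range of animal numbers the sign turned, to 0.10. Plin5, the perilipin of oxidative tissues, was lower by the unadjusted test (-0.47, p 0.0102), with overlapping groups.

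Enzymes of triglyceride synthesis did not move as a block. Mogat1, the monoacylglycerol acyltransferase that fatty liver takes on, measured 5.56, 1.33, 2.21 and 1.38 CPM against 0.704, 0.860, 0.562 and 0.395 CPM, with no overlap and a log2 fold change of -2.04 (unadjusted edgeR p 0.00281), or -1.37 without control replicate 1. The authors' deposited table gives it an adjusted p of 0.0303. Agpat2, an acyltransferase earlier in the pathway, had a log2 fold change of -0.34 (unadjusted p 0.0415) with overlapping groups. Dgat1 and Dgat2, which make the final step, had log2 fold changes of -0.08 and 0.11, and Gpat3 and Lpin1 of -0.19 and -0.13, all at unadjusted p above 0.05. Gpat4 was in no list and was picked after its values were seen. It measured 135 to 156 CPM in controls and 109 to 124 CPM in labelled knockouts, without overlap (log2 fold change -0.33, DESeq2 Wald adjusted p 0.00892). The fatty acid transporter Cd36 measured 191 to 306 CPM in controls and 85.9 to 236 CPM in labelled knockouts, with a log2 fold change of -0.53 (unadjusted p 0.0764).

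Some genes known less for lipid storage shared the pattern. Clstn3, whose locus gives rise to a fat-specific droplet protein, measured 31.9, 12.8, 16.5 and 11.5 CPM against 6.38, 9.16, 7.12 and 4.21 CPM. Every labelled knockout was below every control, and the log2 fold change was -1.44 (unadjusted edgeR p 0.00197), with an adjusted p of 0.00777 in the authors' deposited table. Gal3st1, a sulfotransferase for galactolipids, was lower at -1.75 (unadjusted p 0.00612), with groups that overlapped. Osbpl3 and Gprc5b depended on control replicate 1, where they measured 93.2 and 17.4 CPM against 3.75 to 13.9 CPM and 0.75 to 1.45 CPM in the other controls. Without that library the log2 fold change of Osbpl3 went from -2.57 to -0.74 (unadjusted p 0.116), and that of Gprc5b from -2.03 to 0.08.

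**Figure D2:**
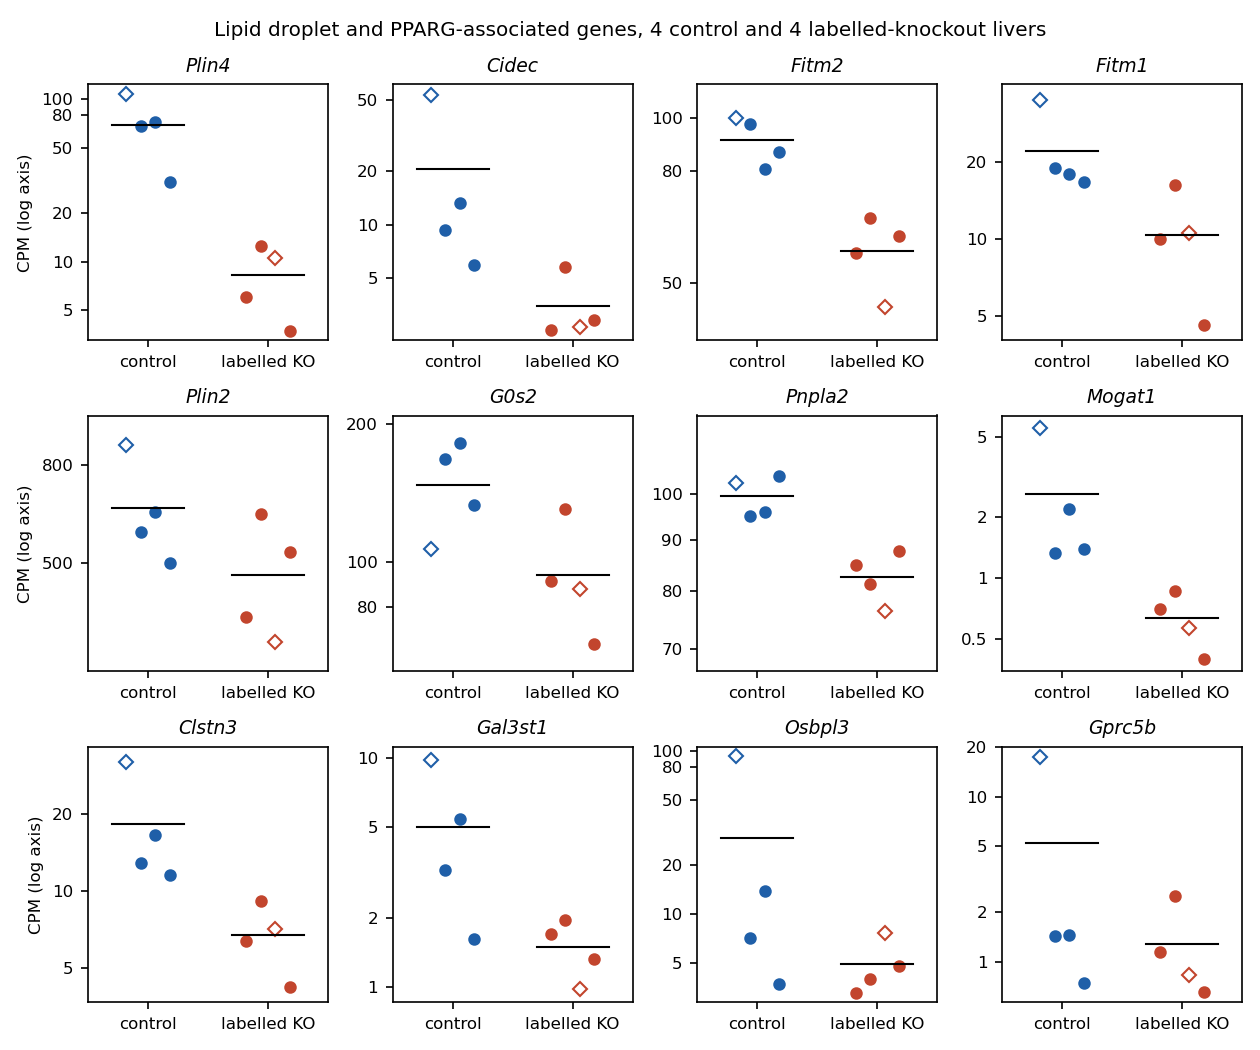
CPM on a log axis for lipid droplet and triglyceride genes in the 4 control and the 4 labelled-knockout livers; each point is 1 liver, horizontal lines are group means, and open diamonds mark control replicate 1 and labelled-knockout replicate 3. The Plin4 groups are widely apart, at 31.0 CPM and above against 12.5 CPM and below, whereas those of Plin2 overlap.

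Per length of transcript, by the deposited FPKM values (fragments scaled by gene length and library size), the droplet genes differed widely in level in control livers: the means were 195 for Plin2, 179 for G0s2, 34.8 for Pnpla2, 24.3 for Fitm2, 24.0 for Fitm1, 23.8 for Plin5, 12.7 for Plin4, 11.6 for Cidec, 2.49 for Hilpda and 1.77 for Mogat1. Plin4, Cidec and Mogat1, with log2 fold changes of -3.08, -2.56 and -2.04, were thus not among the most abundant of these. Without control replicate 1 the log2 fold changes of Cidec and Mogat1 were -1.45 and -1.37. The labelled-knockout means were 1.5 FPKM for Plin4, 1.98 for Cidec and 0.427 for Mogat1.

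Another 4 members had too few reads to test in these females. Cidea, a paralog of Cidec, had 12, 0, 1 and 0 reads in the controls and 1, 0, 0 and 0 in the labelled knockouts. Aqp7, a glycerol channel, had 44, 2, 3 and 1 reads against 0, 1, 1 and 0, and Sdcbp2 had 35, 5, 3 and 5 reads against 0, 0, 2 and 1. Cfd, the fat cell protease adipsin, had 6, 1, 2 and 0 reads against 0 in all 4. Of the 126 reads of these genes in the 8 libraries, 97 came from control replicate 1, and in the other libraries most counts were at or under 3, the limit that a count of 0 allows (0.14 to 0.197 CPM, counting error only). No fold change is given for them. Adipoq was not analysed here.

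The windows from 250 bases before to 50 after each start site were read from RefSeq (GRCm38.p6) to set letters beside these values. The motif searched was AGGNCANAGGNCA, a repeat of the hexamer with 1 spacing base, on both strands, and separately the hexamer AGGTCA, which can lie inside such a repeat. The repeat was present in 125 of 32851 windows (0.381%). Of the PPARG-associated genes, 23 had an entry, and 0 of their 30 windows held it. Of the genes of fatty acid oxidation described next, 27 had an entry, and 1 of 33 windows held it, that of Fabp1. The hexamer was present in 16.3% of all windows, in 5 of the 30 (16.7%) and in 10 of the 33 (30.3%). These matches are descriptions of letters and not binding sites, and a window without a match says nothing of binding elsewhere. The windows shown are those of Plin4, of Cpt1a, a lower gene with a hexamer, and of Fabp1, the gene with the repeat. Plin4 had the largest log2 difference of the DESeq2 Wald calls. The windows are in lower case with the matches in capitals, 5′ to 3′ on the gene's strand. Plin4 lies at chr17:56109733-56110032 (minus strand), Cpt1a at chr19:3323051-3323350 (plus strand) and Fabp1 at chr6:71199629-71199928 (plus strand).
Plin4: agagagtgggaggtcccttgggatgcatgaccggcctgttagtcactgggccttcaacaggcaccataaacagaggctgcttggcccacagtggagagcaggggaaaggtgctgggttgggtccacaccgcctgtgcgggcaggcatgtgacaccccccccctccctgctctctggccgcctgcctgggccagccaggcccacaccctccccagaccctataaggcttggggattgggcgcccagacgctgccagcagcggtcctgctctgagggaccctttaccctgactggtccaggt
Cpt1a: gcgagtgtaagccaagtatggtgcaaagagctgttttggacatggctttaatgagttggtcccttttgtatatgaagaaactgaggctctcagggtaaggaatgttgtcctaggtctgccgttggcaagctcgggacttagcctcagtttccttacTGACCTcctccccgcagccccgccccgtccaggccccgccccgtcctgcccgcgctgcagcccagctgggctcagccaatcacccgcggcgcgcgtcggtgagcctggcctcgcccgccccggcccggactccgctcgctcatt
Fabp1: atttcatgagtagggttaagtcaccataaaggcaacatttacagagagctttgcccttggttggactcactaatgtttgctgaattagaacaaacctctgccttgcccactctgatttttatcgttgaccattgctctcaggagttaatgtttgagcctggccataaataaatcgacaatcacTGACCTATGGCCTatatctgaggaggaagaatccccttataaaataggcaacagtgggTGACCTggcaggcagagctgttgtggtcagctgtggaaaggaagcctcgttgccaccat
In the Fabp1 window the repeat lies on the minus strand with its first base at -67 from the start site, and a second hexamer lies nearer to it. The Cpt1a hexamer lies on the minus strand at -94, and the Plin4 window holds neither. Fabp1, the abundant fatty acid carrier of hepatocytes, measured 2192 to 2971 CPM in controls and 1538 to 2726 CPM in labelled knockouts, and the groups overlapped (log2 fold change -0.16, unadjusted p 0.405).

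Genes of fatty acid oxidation were lower in small steps. Of 39 PPARA targets and oxidation genes 38 were tested, and 20 were lower and 0 higher, with a median log2 fold change of -0.32, and 37 of the 38 had a negative sign, all but Acot3. The groups of 10 members did not overlap, and the DESeq2 Wald test called 5, among them Acaa1b, Pex11a, Acot2 and Vnn1. Without control replicate 1 the count was 24 lower and 0 higher (median -0.34). It was 13 lower and 0 higher without labelled-knockout replicate 3 (median -0.25), which had the lowest value of the list's sum, 14920 CPM against 20060 to 27280 CPM. Within the lower range of animal numbers 12 were lower and within the higher range 18, with 0 higher in both. This list too was chosen with earlier results of these data known. In HF males edgeR's test called 19 of its tested members lower and 0 higher, so its direction is not independent evidence.

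In ketone production Bdh1, which converts acetoacetate to hydroxybutyrate, measured 470, 583, 469 and 479 CPM in the controls and 421, 447, 311 and 437 CPM in the labelled knockouts. The groups did not overlap, and the log2 fold change was -0.31 ± 0.13 (SE, unadjusted edgeR p 0.0404). Without labelled-knockout replicate 3, the lowest liver, it was -0.20 (unadjusted p 0.0829).

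In the mitochondrial pathway Cpt1a, the carnitine acyltransferase that admits fatty acids, measured 1148, 867, 883 and 814 CPM against 642, 786, 589 and 733 CPM. No labelled knockout reached a control, and the log2 fold change was -0.43 (unadjusted p 0.00958). Its partners Slc25a20 and Cpt2 were lower, with log2 fold changes of -0.37 and -0.31, as were Crat, Etfdh and Hadhb, with -0.53, -0.33 and -0.28. Acadl, Acadm, Acadvl and Hadha, which carry out the first steps of the cycle, had log2 fold changes between -0.35 and -0.19 at unadjusted p above 0.05.

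In peroxisomes Acaa1b, a thiolase, measured 1802, 1832, 1903 and 1473 CPM against 1344, 1259, 928 and 1265 CPM, with no overlap and a log2 fold change of -0.55 (DESeq2 Wald adjusted p 0.0117). Its reads are uncertain because Acaa1a is a close paralog and because it overlaps Dlec1, which was also lower, and the libraries were not strand specific. Pex11a, which divides peroxisomes, had -0.85 (DESeq2 Wald adjusted p 0.0435).

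Vnn1, a pantetheinase long used as a readout of PPARA, measured 167, 296, 167 and 187 CPM against 115, 141, 45.1 and 95.3 CPM, without overlap, with a log2 fold change of -1.04 ± 0.32 (SE, DESeq2 Wald adjusted p 0.0474). The thioesterases Acot1 and Acot2 had -0.87 and -0.91, and their sequences are close enough that reads may be shared. Among the omega-hydroxylases Cyp4a14 measured 723, 1780, 916 and 1255 CPM against 899, 557, 383 and 552 CPM, a log2 fold change of -0.97 (unadjusted p 0.0115). Only labelled-knockout replicate 1 reached into the control range, and Cyp4a10 had the same order at -0.71. Pdk4, which restrains glucose oxidation, had -0.97 (unadjusted p 0.0172).

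**Figure D3:**
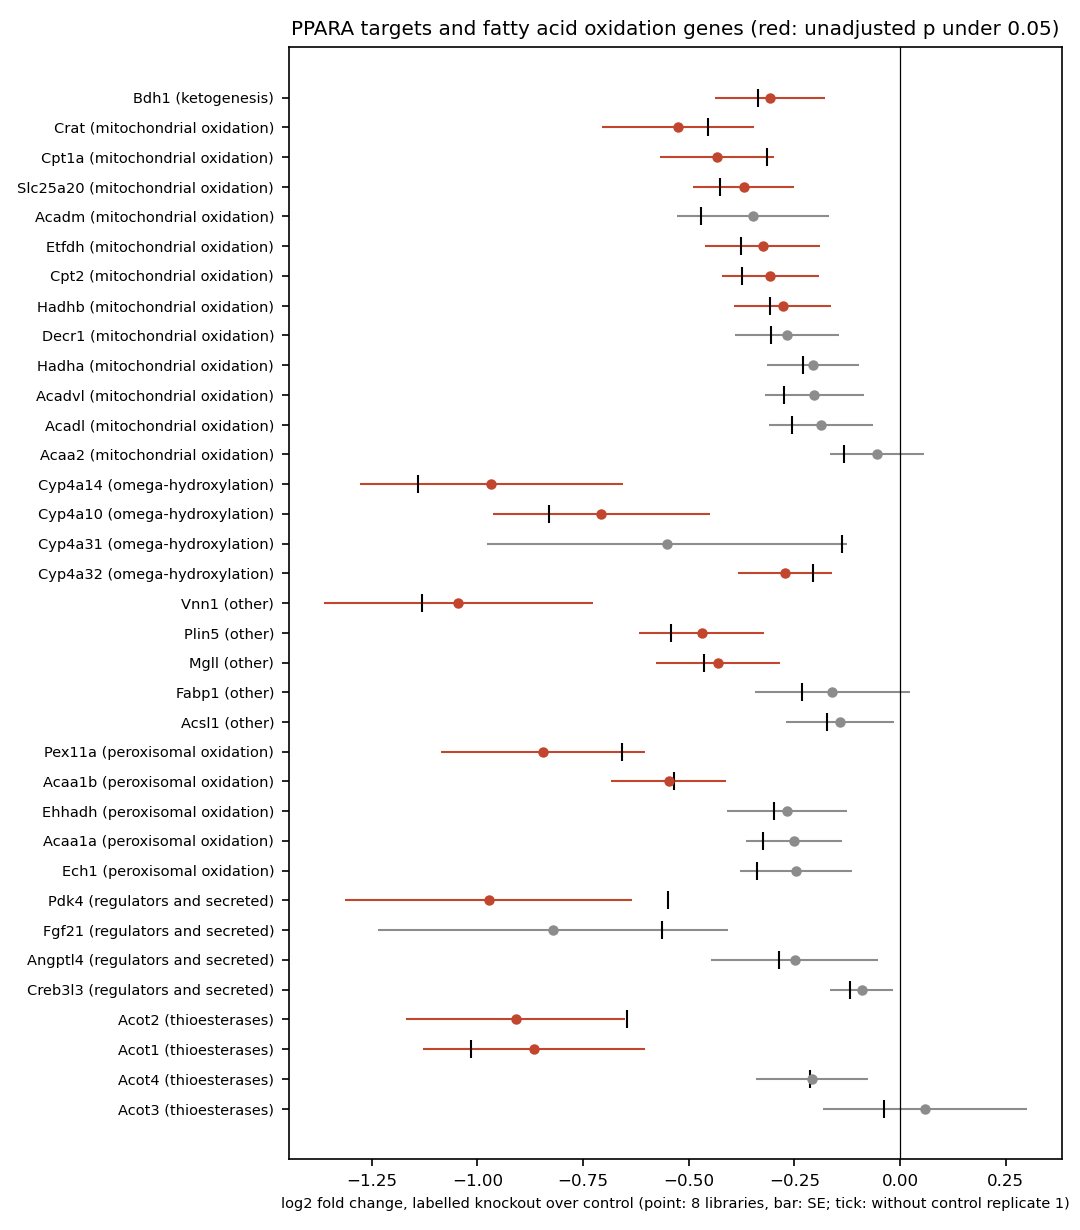
Log2 fold change of labelled knockout over control for 35 of the 38 tested genes of fatty acid oxidation; points are the fit of all 8 libraries, bars are 1 standard error, red marks an unadjusted edgeR p under 0.05, and ticks give the value without control replicate 1. All points but that of Acot3 lie below 0, most of them between -0.5 and 0.

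Among receptors and cofactors, 4 of 15 were lower and Pparg was the 1 higher, with a median of -0.02. Ppara measured 282, 196, 215 and 228 CPM in the controls and 174, 203, 137 and 194 CPM in the labelled knockouts, a log2 fold change of -0.38 (unadjusted p 0.0271), or -0.27 without control replicate 1 (p 0.0718). Only labelled-knockout replicate 2 reached above the lowest control. The coactivator Ncoa1 measured 25.5 to 29.9 CPM against 19.4 to 23.1 CPM, and the corepressor Nrip1 18.1 to 24.1 against 16.4 to 17.7 CPM. Neither overlapped between the groups, and their log2 fold changes were -0.33 and -0.32. The partners Rxra, Rxrb and Rxrg and the third receptor, Ppard, had log2 fold changes between -0.19 and 0.13, at unadjusted p above 0.05.

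Glucose output genes held 1 of the larger differences. G6pc (chromosome 11, 101367561 to 101377903, GRCm38), the phosphatase of the last step of glucose release, measured 167, 353, 233 and 309 CPM in the controls and 91.0, 63.4, 93.2 and 172 CPM in the labelled knockouts. Labelled-knockout replicate 4 lay just above control replicate 1, and the others were below every control. The log2 fold change was -1.34 ± 0.31 (SE, unadjusted edgeR p 0.00175, DESeq2 Wald adjusted p 0.0484), and it was -1.68 to -1.16 when each library was left out in turn. Pck1, the carboxykinase of the pathway, had -0.43 (unadjusted p 0.0354) with overlapping groups. These were the 2 lower members of 14 tested in the list, with 0 higher and a median of -0.03. Pcx, which makes oxaloacetate, and the glycerol phosphate dehydrogenases Gpd1 and Gpd2 were in no list and were picked after their values were seen, from the genes called by the DESeq2 Wald test. Pcx measured 759 to 1001 CPM in controls and 513 to 693 CPM in labelled knockouts (log2 fold change -0.54), Gpd1 202 to 385 against 107 to 187 CPM (-0.84), and Gpd2 56.4 to 75.2 against 24.1 to 46.8 CPM (-0.71), none with overlap.

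In bile acid handling 2 of 18 genes were lower and 0 higher, with a median of -0.02. Abcb4, which flips phosphatidylcholine into bile, measured 350 to 439 CPM against 229 to 335 CPM, without overlap (log2 fold change -0.39, unadjusted p 0.0137). Cyp8b1, which makes the precursor of cholic acid, had -0.79 (unadjusted p 0.0143) with overlap. Cyp7a1, the rate-limiting enzyme of bile acid synthesis, had 0.43 (unadjusted p 0.195), and -0.29 within the higher range of animal numbers.

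Abcc3, an exporter of conjugates from hepatocytes to blood, measured 469, 494, 373 and 493 CPM in controls and 304, 301, 208 and 294 CPM in labelled knockouts. Each labelled knockout was below each control, and the log2 fold change was -0.73 ± 0.14 (SE, unadjusted edgeR p 0.000515, DESeq2 Wald adjusted p 0.000873). Ephx1, a detoxifying epoxide hydrolase, was lower too (-0.54, DESeq2 Wald adjusted p 0.00892). In the 24 tested genes of xenobiotic metabolism these were the only 2 lower, and 2, Sult1a1 and Cyp2c55, were higher. Chpt1, which makes phosphatidylcholine, measured 164 to 231 CPM against 131 to 137 CPM (-0.54), and the mitochondrial carriers Slc25a47 and Slc25a10 had -0.48 and -0.40, all 3 with a DESeq2 Wald adjusted p of 0.000873. Car3, the carbonic anhydrase found in fat and in male liver, had -0.52 (DESeq2 Wald adjusted p 0.0316), with overlap of labelled-knockout replicate 3.

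Further lower genes without overlap, which kept an unadjusted p under 0.05 whichever library was left out, included some of low level. Olig1, a transcription factor known from oligodendrocytes, measured 9.76, 4.16, 7.91 and 6.40 CPM against 1.76, 2.64, 1.82 and 1.71 CPM, a log2 fold change of -1.83 (unadjusted edgeR p 8.13e-05). Dlec1, which overlaps Acaa1b, measured 6.92 to 16.2 CPM against 2.44 to 3.93 CPM (-1.84), and Rufy4 had -1.93. Hdc, which makes histamine from histidine, had -0.98, Lamb3, a laminin subunit, -1.02, the small GTPase Arl4a -0.63, the noncoding Ctcflos -0.70 and Fam107b -0.40.

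Among the higher genes without overlap were 4 that act in class I antigen presentation. They were grouped after their values were seen, and the other genes of that pathway were not counted as a list. H2-Q7 (chromosome 17, 35439155 to 35443773, GRCm38), a class I heavy chain, measured 85.1, 96.0, 81.1 and 79.8 CPM in controls and 109, 117, 115 and 116 CPM in labelled knockouts. All 4 labelled knockouts lay above all 4 controls and close together, and the log2 fold change was 0.42 ± 0.08 (SE, unadjusted edgeR p 0.000335, DESeq2 Wald adjusted p 0.000873). Its relative H2-Q5 measured 12 to 14.1 CPM against 18.4 to 24.1 CPM (0.68), and since the H2-Q genes are near copies, the division of reads among them is uncertain. Tap1, the peptide transporter that feeds class I molecules, measured 45.3 to 51.1 CPM against 56.1 to 75.3 CPM (0.44), and Psmb9, a subunit of the immunoproteasome, 26.4 to 30.8 against 35.6 to 47.2 CPM (0.46). Neither overlapped, and the highest value of H2-Q5, Tap1 and Psmb9 was that of labelled-knockout replicate 3, the library with the neutrophil and B cell markers. Without it their log2 fold changes were 0.59, 0.37 and 0.36, and that of H2-Q7 was 0.42. Of the wider list of interferon-stimulated genes 3 of 19 were higher (Gbp3, Irf1 and Stat2) and 0 lower, and without that library 1.

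The remaining higher genes served varied roles. Ppox, an enzyme of haem synthesis, measured 28.3 to 29.7 CPM in controls and 36.0 to 39.3 CPM in labelled knockouts (0.35, DESeq2 Wald adjusted p 0.00731), and Gamt, which makes creatine, 272 to 302 against 342 to 370 CPM (0.29, DESeq2 Wald adjusted p 0.0025). Trafd1, a brake on innate immune signalling, had 0.38, Mast3, a kinase, 0.50, and Mum1 0.43, all called by the DESeq2 Wald test and without overlap. Gnat1, a transducin subunit known from rods, measured 29.1 to 52.8 against 67.8 to 94.2 CPM (0.77), and Gstp3, a glutathione transferase, had 0.51. Dbp, a clock output factor, measured 167, 167, 188 and 201 CPM against 235, 213, 224 and 273 CPM (0.39, DESeq2 Wald adjusted p 0.0387), and in the list of 17 clock genes Per3 was the other higher one. Low genes in this set were Eci3, a peroxisomal isomerase (1.31), the receptor Adgrf1 (1.60), Ldlrad3 (0.50) and Iglc2, an immunoglobulin light chain constant segment (1.62). For Iglc2, control replicate 4 measured only 0.231 CPM. B cell markers summed highest in labelled-knockout replicate 3 (149.9 CPM), and the part of B cells in the Iglc2 value was not tested. Of 21 acute phase genes 4 were higher (Apcs, Fgb, Orm1 and Fgg), Apcs without overlap (0.39). That count was lower without labelled-knockout replicate 3, at 1, with 5 lower.

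**Figure D4:**
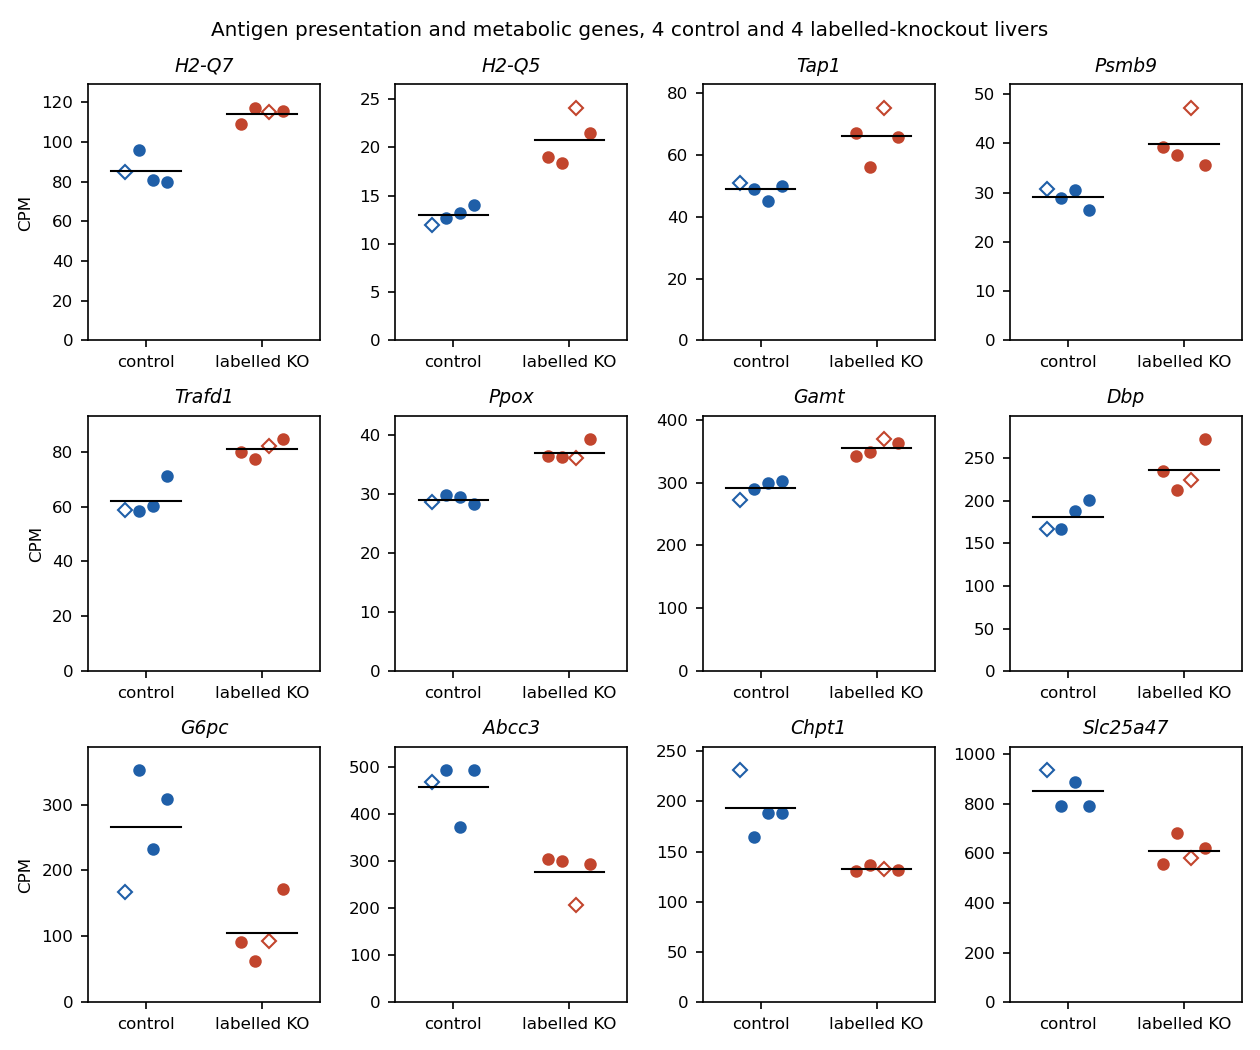
CPM, on a linear axis from 0, for metabolic, transport and antigen presentation genes in the 4 control and the 4 labelled-knockout livers; each point is 1 liver, lines are group means, and open diamonds mark control replicate 1 and labelled-knockout replicate 3. For H2-Q7 the labelled knockouts sit at 109 to 117 CPM above controls at 79.8 to 96.0 CPM, and for Abcc3 they sit at 208 to 304 CPM below controls at 373 to 494 CPM.

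Other lists turned on control replicate 1 or on the animal number. For 27 extracellular matrix genes the median was -0.41 with all libraries, with 1 lower (Mmp12) and 0 higher, and 0.40 without control replicate 1, with 0 lower and 3 higher. Col1a1, the main fibrillar collagen, measured 143, 9.24, 20.5 and 5.71 CPM in the controls and 21.5, 33.6, 21.1 and 4.21 CPM in the labelled knockouts, and its log2 fold change went from -1.15 to 0.77 without that library. Cholesterol synthesis had 1 of 25 higher (Tm7sf2; median 0.27), and 7 higher without control replicate 1 (median 0.61). Within the lower range of animal numbers the same list had 13 lower and 0 higher (median -0.54), and within the higher range it had 0 lower and 23 higher (median 1.30). De novo lipogenesis had 0 of 21 in either direction, 10 lower within the lower range of animal numbers and 12 higher within the higher range. Each of these ranges holds 2 livers per group. What the animal numbers stand for is not given in the sources used here, and their part was not tested.

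The 24 macrophage and inflammation genes had 0 lower and 1 higher, Tlr4, and a median of 0.24, or -0.25 without labelled-knockout replicate 3. Of 13 transcripts encoded by mitochondrial DNA 4 were lower and all had a negative sign, with a median of -0.21, and their sum was 41340 to 45140 CPM in controls and 38470 to 40060 CPM in labelled knockouts. Without control replicate 1, 2 of them were lower and 12 had a negative sign (median -0.15). Without labelled-knockout replicate 3, 1 was lower and all 13 had a negative sign (median -0.16). Of 15 female-biased liver genes 2 were higher (Cyp2a4 and A1bg) and 0 lower, and of 8 male-biased genes 1 was lower, and the sum of the female-biased genes was lowest, at 2704 CPM, in control replicate 1. Cell cycle genes and the markers of hepatocyte zones, bile duct, stellate, endothelial and Kupffer cells had at most 2 members in either direction.

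HF males, with 6 livers per group, gave the same contrast more calls: 1387 of 14041 genes lower (9.88%) and 1204 higher (8.57%) in edgeR's quasi-likelihood test. Of these, 219 were lower by at least 1 on the log2 scale and averaged at least 1 CPM in a male group. The fit of the females tested 180 of them. In the females 48 of the 180 were lower and 0 higher, with a median of -0.64 against -1.31 in males. Without control replicate 1, 33 of 181 were lower and 5 higher and the median was -0.07. Within the lower range of animal numbers the median was -1.10, and within the higher range it was 0.04. Of the 97 genes higher in males by the same limits, 86 were tested in females. There 9 were higher and 1 lower, with a median of 0.38, or 0.17 without control replicate 1. Both sets were chosen by their male values, so the male and female medians are not on an equal footing.

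**Figure D5:**
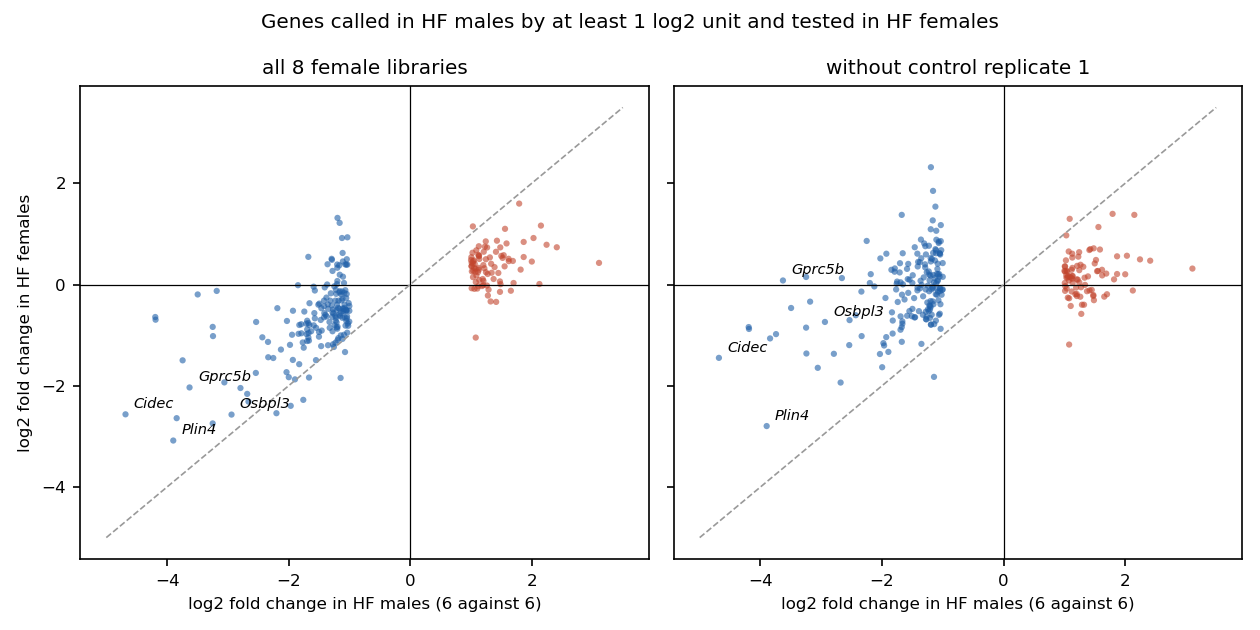
Log2 fold change in HF females (y axis) against that in HF males (x axis) for the genes called in males with a change of at least 1, blue for lower and red for higher in males, with all 8 female libraries and without control replicate 1; the dashed line marks equal change. The genes drawn averaged at least 1 CPM in a male group. With all libraries most blue points lie below 0, at a median of -0.64, and without control replicate 1 they centre near 0, at -0.07.

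Whether the effect differed by sex was tested as an interaction. Of 15024 genes, edgeR's test called 0 (0%) and gave 1589 an unadjusted p under 0.05 (10.6%). The DESeq2 Wald test called 46. Without female control replicate 1 edgeR called 287 of 15247 (1.88%), 56 of them among the 219 genes lower in males and 17 among the 97 higher in males. Both sets were chosen by large changes in the male libraries that form 1 side of this interaction. The calls within them are therefore not independent evidence of a sex difference. For Plin4 the male log2 fold change was -3.90 and the adjusted interaction p 0.519, or 0.154 without that library. For Cidec the male value was -4.68, and the adjusted interaction p went from 0.319 to 2.95e-05 without control replicate 1. Cidec was among the genes named as high in that library, so this second p is not an independent test. For G6pc the male value was 0.03, with means of 180 and 184 CPM, and the adjusted interaction p 0.328, or 0.0673 without control replicate 1. Abcc3, at -0.87 in males, and Fitm2, at -0.84, had adjusted interaction p-values of 0.791 and 0.779.

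In females on the other diets, the interaction of the HF effect with diet was called for 0 of 15445 genes against the diet high in fat, cholesterol and fructose (HFCF; 667 or 4.32% at an unadjusted p under 0.05, and 0 by the DESeq2 Wald test) and for 0 of 14938 against the low fat (LF) diet (554 or 3.71% at an unadjusted p under 0.05, and 2 by the DESeq2 Wald test). The HFCF females were not on that diet throughout. Their 34 weeks held 18 weeks of the HF diet and 16 weeks of the HFCF diet. The LF females had 0 weeks of the HF diet, and both sets received the virus after 16 weeks. Plin4 had a log2 fold change of -2.80 in HFCF females (unadjusted p 3.18e-05) and -0.54 in LF females (unadjusted p 0.0116). Vnn1 had -1.03 and -0.47, Abcc3 -0.91 and -0.41, and G6pc -0.41 and -0.38 on the HFCF and the LF diet. Plin4 was 1 of the 2 genes that the DESeq2 Wald test called for the HF and LF diets (adjusted p 0.00161), and its HF effect minus its LF effect was -2.53 on the log2 scale in edgeR's test (unadjusted p 7.42e-05, adjusted p 0.927). The other was the female-biased A1bg (6.72, DESeq2 Wald adjusted p 0.00559, edgeR adjusted p 0.927). Between the HFCF and HF diets the Plin4 effects, -2.80 and -3.08, differed by 0.28, with an adjusted edgeR p of 0.98.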

How the data were processed

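Whole-liver RNA-seq counts of 4 F-HF-C and 4 F-HF-KO libraries were analysed, grouped by sample title. Per the submitters' processing notes the tools were STAR 2.6.1, HTSeq 0.6.1 and DESeq2 and the build GRCm38 (mm10); the labels describe an unstranded kit with inserts of 250 to 300 bp. Raw counts, as deposited, cover 24086 genes with at least 2 reads summed over the 8 libraries. The deposited normalized signal equals the count times 1 factor per library, and the deposited FPKM equals the count over gene length times 1 factor per library; the FPKM were used for levels between genes only. The log2 fold changes and adjusted p-values of the authors' deposited table served for comparison only. The number of per-sample columns left without a sample was 0.

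Counts were fitted with edgeR 4.0.16 in R 4.3.3 (TMM scaling, filterByExpr, quasi-likelihood test), with Benjamini-Hochberg adjustment over the 14128 genes tested, of which the median log2 fold change was 0.01. The biological coefficient of variation was 0.21. DESeq2 1.42.0, limma 3.58.1 (voom with sample weights), other filters, pooled fits and the omission of each library were alternatives, and the code was tested on simulated data. Pparg was also tested by an exact permutation of log2 CPM with a pseudocount of 0.5. Sex and diet differences were tested as interactions in edgeR. The members and gene lists (487 symbols, 470 in the table) were chosen with earlier results of these data known. Genes were named by rule: Pparg, up to 4 members of each list with the smallest p, the leading DESeq2 calls, and the genes that set apart 1 library. A further rule asked for no overlap and an unadjusted p under 0.05 in every fit that left out 1 library. It also asked for a mean of at least 1 CPM in a group and excluded predicted genes. It was met by 202 lower and 90 higher genes, of which the 12 lower and 12 higher with the smallest edgeR p were taken. Other genes are named within their list or, where stated, from the DESeq2 calls. The results of a few genes are not reported here. Promoter windows came from RefSeq (GRCm38.p6).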

Additional observations from a re-analysis of the deposited data

Results flagged for a closer look

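For 73 named genes the values of each group of 4 livers were checked for a single liver far from the other 3, by the gap to its nearest neighbour as a share of the group's range. In 16 of 146 groups that share was above 0.829, which chance gives in about 5% of groups. That rate does not apply to these genes as a test, since some were named for standing out in 1 library or for groups that did not overlap. Control replicate 1 was high for Cidec (share 0.847, 53.3 CPM), Fitm1 (0.873, 35.0 CPM), Osbpl3 (0.886, 93.2 CPM), Gprc5b (0.958, 17.4 CPM) and Col1a1 (0.892, 143 CPM), which is 5 of the 16. Control replicate 2 was high for Bdh1 (0.912, 583 CPM) and Vnn1 (0.842, 296 CPM). Control replicate 4 was high for Trafd1 (0.864, 70.9 CPM) and low for Iglc2 (0.956, 0.231 CPM). Labelled-knockout replicate 2 was high for Cidec (0.896, 5.78 CPM) and Olig1 (0.878, 2.64 CPM), both still below every control. Labelled-knockout replicate 3 was low for Abcb4 (0.845, 229 CPM) and Abcc3 (0.889, 208 CPM) and high for Dlec1 (0.862, 3.93 CPM). Labelled-knockout replicate 4 was high for Ppox (0.908, 39.3 CPM) and Gnat1 (0.843, 94.2 CPM).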

How the results depend on the processing

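With 4 livers a group and a coefficient of variation of 0.21, edgeR's quasi-likelihood test called 0 genes under TMM or DESeq2 scaling, either filter on low counts, the range of animal numbers as a covariate or alone, and each library left out (0 to 0). DESeq2's Wald test called 70, the fit of the 6 female groups 2, and that of the 4 HF groups of both sexes 28. The replicate numbers are not stated to mark pairs, and livers of the same number had correlations of deviations of both signs (-0.07, -0.17, 0.24 and 0.44). With the replicate block 0 genes were called, and the log2 fold change of Pparg was 0.62. Without each library in turn the Pparg difference in mean log2 CPM ran from 0.43 to 0.75 (exact permutation p 0.0571 to 0.143).

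The count for the sex difference was 46 by the Wald test and 0 to 287 with a library left out: 287 without control replicate 1, and 1, 4 and 2 without labelled-knockout replicates 1, 3 and 4. The Wald count for the HF and LF diets was 2. Of 73 named genes 68 kept their sign in every setting that gave them a value (DESeq2's Wald test gave 53 an adjusted p, and the filter of 10 counts in every library kept 70). Within the higher range of animal numbers, an alternative chosen after seeing the data, Plin2 had 0.10, Fabp1 0.042, Cyp7a1 -0.29, Gprc5b 0.54 and Col1a1 1.35. Without control replicate 1 Gprc5b had 0.08 and Col1a1 0.77, without it and labelled-knockout replicate 3 0.25 and 0.75, and with limma's sample weights Col1a1 had 0.26. With each library left out in turn Gprc5b ran from -2.56 to 0.08 and Col1a1 from -1.51 to 0.77. The causes were not tested.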

Other observations

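With the spread shared between the HF females and the HF males, edgeR's quasi-likelihood test called 28 genes for the female contrast, 25 of them lower. They included the phospholipid enzyme Chpt1 (adjusted p 0.0261), Clstn3, Abcc3 and Pcx (each 0.0309), Cidec (0.0321), the glycerol phosphate dehydrogenase Gpd1 (0.0365), and Acaa1b and Hdc (each 0.0492). These values assume that the females vary as the males do.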
